A study of Homo sapiens with 12 samples.

Results

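These are the FoxK1 binding sites of HepG2 cells that stood lower in the order of peak strength after insulin than without it, in every library. FoxK1 chromatin immunoprecipitation libraries came from HepG2, an established human hepatocellular carcinoma line used as a model of hepatocytes. All cells spent 16 h in serum-free medium. The insulin group (3 libraries) then received 100 nM insulin for 20 min and the untreated group (3 libraries) received none. Peaks of the 6 lists that shared 1 bp or more were merged into 68127 regions, of which 15887 had a peak in all 6 lists and are called shared. In each library the shared regions were ordered by the highest −log10 q of their peaks, the strength of evidence that the peak caller gave, and this order was written as a percentile from 0 (weakest) to 100 (strongest). The members were chosen by these percentiles: the highest of the 3 insulin values had to lie below the lowest of the 3 untreated values. This held for 685 regions, 4.31% of the shared ones. The mirror rule, higher after insulin in every library, held for 740, or 4.66%.

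FoxK1 is a forkhead transcription factor, which holds DNA through a winged-helix domain. It is known to recruit the Sin3 corepressor and to restrain autophagy genes in fed cells. In liver cells insulin is known to move FoxK1 into the nucleus while it moves the related FoxO factors out, so a site could gain or lose FoxK1 within minutes of the hormone. A percentile within a list compares a site with the other sites of that library. It does not measure how much FoxK1 was bound, and a fall in rank can come from a weaker site or from other sites that became stronger. These possibilities cannot be told apart in these lists.

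Placing any other 3 libraries on the low side gave between 446 and 1464 regions over the 18 other arrangements, with a median of 735.5. In 12 of the 18 the number was at least as high as the 685 of the members. The number of members therefore lies within the range that the other groupings of these libraries gave, and below their median. The highest number, 1464, came with insulin replicate 2 and untreated replicates 1 and 2 on the low side, a grouping that mixes the treatments. Libraries with the same replicate number resembled each other in their deviations from their group, with correlations of 0.123, 0.300 and 0.307 for numbers 1, 2 and 3. Insulin replicate 2 and untreated replicate 1, of different numbers, had 0.0933, close to the value for number 1. An arrangement that keeps a same-numbered pair on the same side starts from libraries that deviate together. What part this has in the counts was not tested. The real grouping has 1 library of each number on each side. Among the 6 other arrangements built that way, a set picked after the counts were seen, the numbers ran from 446 to 622, all below the 685 members and the 740 mirror regions. With a gap of at least 5 percentile points those 6 gave 131 to 192, against 215 members, and with at least 10 points they gave 36 to 61, against 97. With at least 20 points they gave 2 to 9, against 12. The mirror regions were also above those 6 at 5 points, with 226, and at 10 points, with 70. They fell to 4 at 20 points, inside the 2 to 9 of those 6. Over all 18 other arrangements the numbers were 131 to 606 at 5 points, 36 to 267 at 10 and 2 to 47 at 20. In 12, 7 and 8 of the 18 they were at least as high as those of the members. Ordered by fold the 6 arrangements gave 436 to 561, and by summit fragments 458 to 630. Both ranges lie below the counts of those orders given further on. The gap cuts are nested in the members, and the other orders come from the same peaks, so none of them is separate support. Over all 18 they ran up to 1759 by fold and 1292 by fragments, with 11 of the 18 at least as high in each order. When the comparison was made within each same-numbered pair, 2185 regions (13.8% of the shared ones) stood lower after insulin in 3 of 3 pairs and 2317 stood higher. The 6 mixed patterns of signs held 1625 to 2167 regions each. No p-value is given for these counts because the members were chosen on the same values. A single region in 3 against 3 libraries cannot go below a two-sided exact permutation p of 0.1. With the libraries taken as 3 pairs, the smallest two-sided sign-flip p is 0.25.

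**Figure D1:**
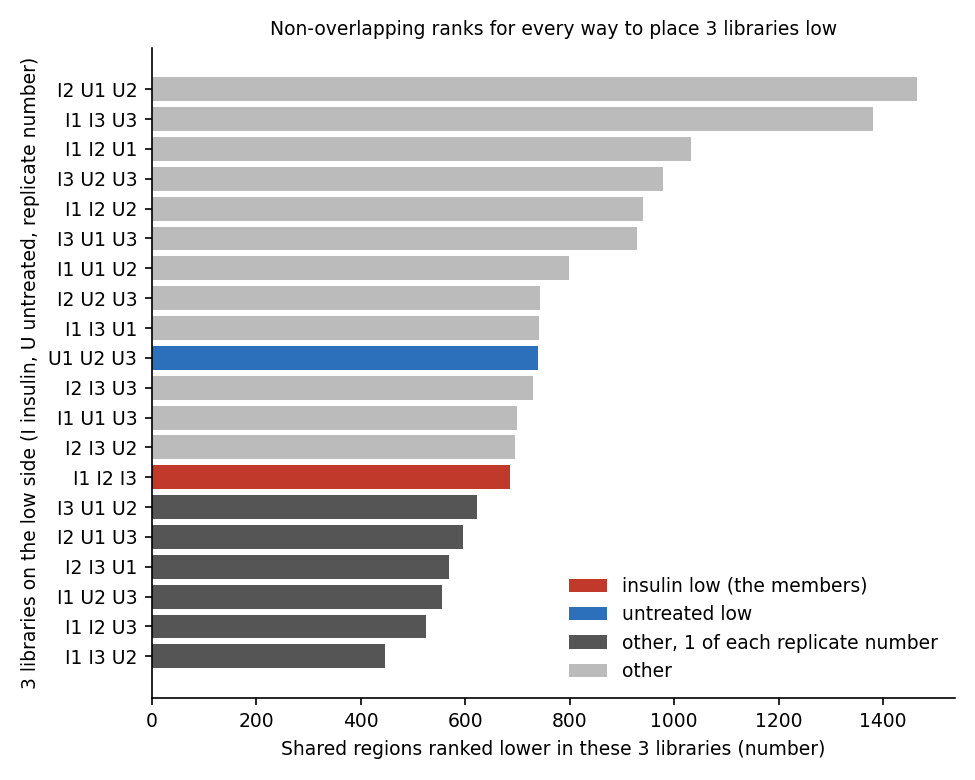
Bars give the number of shared regions (x axis) whose percentiles were lower in the 3 libraries named at the left (y axis; I insulin, U untreated, with the replicate number) than in the other 3. The members (685) lie below 12 of the 18 other arrangements. They lie above the 6 others that have 1 library of each number on the low side, a set picked after the counts were seen.

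Most members crossed the rule by little. The median gap between the lowest untreated and the highest insulin percentile was 3.05 points. Percentiles moved in steps in the replicate 3 lists, where 70.5% (insulin) and 76.2% (untreated) of shared regions had a tied −log10 q. For example, members with 13 and 14 summit fragments in insulin replicate 3 stood at 5.41 and 8.34, a step close to the median gap. How many memberships turn on such a step was not tested. The sizes of the gap were as follows. The gap was at least 5 points in 215 members, at least 10 in 97, at least 20 in 12 and at least 30 in 4. The mirror regions had 226, 70, 4 and 0 at these sizes. Over all members the median percentile was 30.7, 36.1 and 30.5 in insulin replicates 1, 2 and 3, and 55.3, 55.2 and 58.0 in untreated replicates 1, 2 and 3. The members were also regions whose libraries of 1 treatment lay close together, as the rule favours. Their 3 insulin percentiles spanned a median of 10.9 points and their 3 untreated ones 10.3, against 17.1 and 18.8 over all shared regions. Insulin replicate 2 was the highest insulin library in 305 members (44.5%), replicate 3 in 197 and replicate 1 in 183. The lowest untreated library was replicate 1 in 250, replicate 2 in 236 and replicate 3 in 199, so no single library set the lower edge of most members.

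The widest gap, 37.0 points, was at chr10:45491055-45492600 (all coordinates are 1-based, build hg19). Its percentile was 40.5, 51.9 and 40.7 in insulin replicates 1, 2 and 3, and 88.9, 89.6 and 89.3 in the untreated libraries. Without insulin this site was at positions 1770, 1684 and 1704 of the 3 lists, counted from the strongest peak, and after insulin it was at 11047, 8303 and 10126. The number of DNA fragments stacked at the summit (recovered from 2 of the deposited columns, fold and −log10 p) was 45, 75 and 22 after insulin and 154, 89 and 48 without it. Divided by the median shared region of the same library, the insulin values were 0.75, 0.91 and 0.76 and the untreated ones 1.77, 1.75 and 1.66. The groups did not overlap, and the ratio of the geometric means was 0.467. All 6 summits lay within 151 bp of each other. The nearest shared region, chr10:45499639-45501280, 7038 bp away, was a member too, with a gap of 19.3 points. Its percentiles were 40.1, 61.8 and 48.3 after insulin and 81.2, 83.8 and 90.9 without it.

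The second gap, 36.0 points, was at chr3:171555794-171557379, where percentiles were 18.7, 34.5 and 17.2 after insulin and 71.2, 70.5 and 79.5 without it. Summit fragments there were 36, 62 and 22 after insulin and 106, 73 and 47 without it, a ratio of 0.496 after scaling to each library's median. These were the only members with a gap of at least 35 points. Their ratios of scaled summit height were lower than at the other 8 sites described next, where they were 0.583 to 0.742.

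At chr16:10704581-10705337 the percentiles were 9.42, 18.7 and 17.9 after insulin and 68.7, 51.8 and 52.8 without it. Here the drop in rank was not matched by fragments in every library, since scaled summit heights were 0.57, 0.71 and 1.24 after insulin and 1.34, 1.16 and 1.38 without it, and insulin replicate 3 exceeded untreated replicate 2. The background estimated at this summit was 11.4 fragments in insulin replicate 3 and 8.74 in untreated replicate 3, while it was lower in insulin replicates 1 and 2 (6.28 and 9.87) than in untreated replicates 1 and 2 (14.3 and 11.8). At chr16:50069216-50070186 percentiles were 15.5, 11.1 and 13.5 after insulin and 58.2, 53.7 and 45.6 without it, and summit fragments were 31, 43 and 23 against 73, 50 and 31. Both chromosome 16 sites had percentiles below 20 in every insulin library and above 45 in every untreated one.

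The site at chr6:26532835-26533708 had percentiles of 24.6, 25.5 and 2.28 after insulin and 62.6, 54.1 and 59.1 without it. It lies on the short arm of chromosome 6. Insulin replicate 3 was far below the other insulin libraries, with 17 fragments at the summit against 46 and 73. At chr1:42781030-42781618 percentiles were 36.2, 34.3 and 29.8 after insulin and 73.6, 79.9 and 64.0 without it, with 37, 48 and 22 fragments against 79, 51 and 33. This was a site of low background, at most 4.56 fragments in any library, and its fold over background was 11.8, 11.1 and 5.00 after insulin and 16.3, 13.2 and 6.12 without it.

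At chr17:59256447-59257259 percentiles were 22.3, 17.5 and 16.7 after insulin and 48.3, 50 and 56.8 without it. This site was isolated, with 113282 bp to the nearest other shared region. At chr17:38501190-38502856 percentiles were 47.6, 55.9 and 56.0 after insulin and 79.1, 80.02 and 85.4 without it. That site stayed above or near the median of the shared regions after insulin and is one of only 2 of the 10 with an insulin mean above 40 (53.1, beside 44.4 on chromosome 10). At chr19:36265999-36266723 percentiles were 21.6, 22.5 and 25.2 against 47.8, 49.4 and 48.5, with the closest insulin libraries of the 10 sites. At chr22:31982359-31983023 they were 2.58, 19.3 and 7.49 against 48.8, 40.9 and 40.6. Its summit fragments were 19, 48 and 15 after insulin and 64, 31 and 25 without it, and in the order of fragments insulin replicate 2 (percentile 16.1) stood above untreated replicate 2 (13.6).

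**Figure D2:**
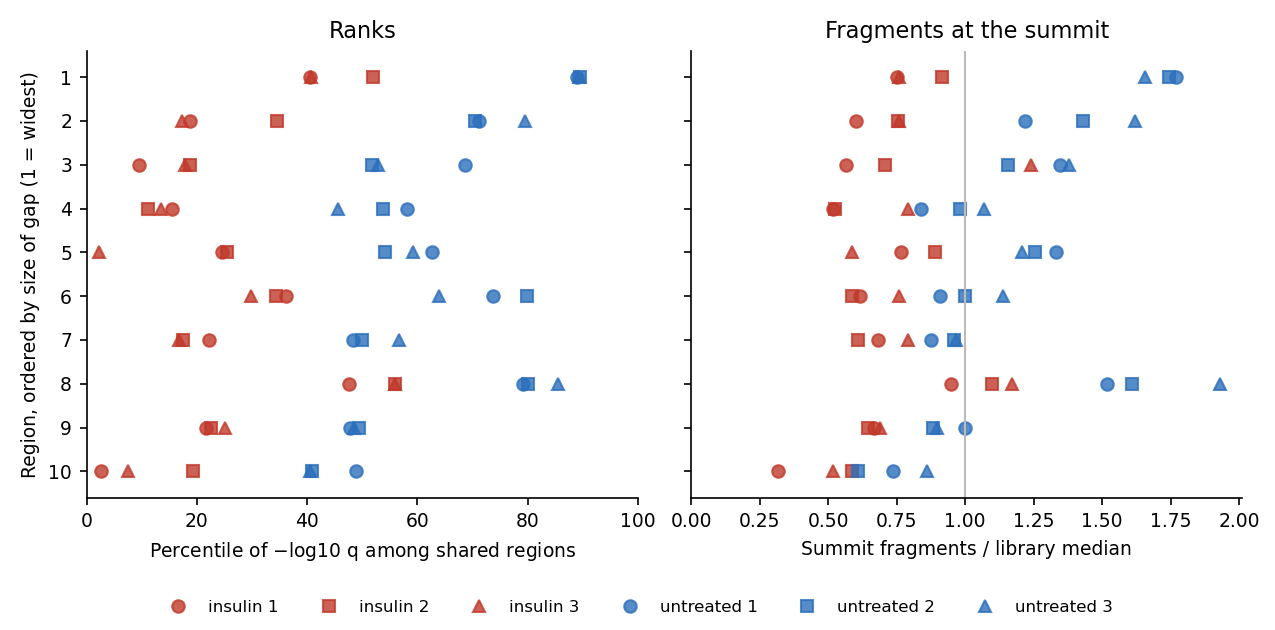
Each row is 1 of the 10 members with the widest gap (y axis, 1 the widest), with a point for each library. The left x axis is the percentile of −log10 q among shared regions, which chose the members, and the right x axis is the number of summit fragments divided by the library's median over shared regions. Red insulin points lie left of blue untreated points in the left panel by rule, and on the right in 9 of 10 rows, row 3 being the exception.

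Ranked by fold enrichment in place of −log10 q, 601 shared regions (3.78%) were lower after insulin without overlap, and 390 of these were members, which is 56.9% of the members and 64.9% of the 601. Ranked by summit fragments there were 748 (4.71%), of which 332 were members, 48.5% of the members and 44.4% of the 748. These readouts come from the same peaks as the −log10 q, so they describe the members and do not test them. In 176 members all 3 orders separated the treatments, and in 139 neither fold nor fragments did. The share rose with the gap. Of the 97 members with at least 10 points, 84 were also lower by fold and 71 by fragments. Of the 12 with at least 20 points, 12 and 10 were.

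The scaled number of fragments at the summit had a median ratio, insulin over untreated, of 0.791 over the members, with a range of 0.467 to 1.05. It was 1.01 over all shared regions. It was below 1 in 676 of the 685 members, against 48.7% of all shared regions. Fragments come from the same summits as the −log10 q that chose the members, so this contrast is not independent of the choice. The median ratio was 0.693 among members with a gap of at least 10 points. In fragments, the median member had 44, 65 and 22 at its summit after insulin and 83, 51 and 30 without it, while the median shared region had 60, 82 and 29 and 87, 51 and 29. The untreated values of the members were thus close to those of all shared regions, and the insulin values were below them in every library. Fold enrichment of the members had a median percentile of 36.0, 42.3 and 31.2 after insulin and 64.5, 63.8 and 61.8 without it. By fold the members thus stood above the median shared region in every untreated library and below it in every insulin library.

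The background estimated under the members was low in both treatments for replicates 1 and 2. Its median percentile was 33.6 and 38.6 in insulin replicates 1 and 2, and 27.2 and 30.3 in untreated replicates 1 and 2. In replicate 3 it was 54.7 after insulin and 44.7 without it. Background stood higher after insulin, and lower, without overlap at 332 (2.09%) and 351 (2.21%) of the shared regions. Of the members, 23 had the higher and 7 the lower background after insulin. A higher background lowers −log10 q at a given number of fragments. The part of the background in the members' ranks was not tested beyond the order of fragments given above. The replicate 3 lists had 29.7% (insulin) and 33.2% (untreated) of their peaks at the lowest background of the list, against at most 1.29% in the others. At the members this was 23.5% and 28.0%, and at all shared regions 25.6% and 26.6%.

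Members' strongest peaks were narrower than usual after insulin. Their width stood at a median percentile of 38.3, 38.1 and 41.0 after insulin, against 48.9, 46.7 and 48.3 without it. In base pairs the medians were 613, 775 and 522 after insulin and 773, 656 and 559 without it. Width comes from the same peaks as the rank and is not independent of it. The merged member regions were 1000 bp wide at the median. All shared regions were 1092 bp and the mirror regions 1161 bp. In 587 members (85.7%) each library had exactly 1 peak, against 82.6% of all shared regions. The median distance between the middle insulin and the middle untreated summit was 22 bp, and 20 bp for all shared regions. In 511 members (74.6%) all 6 summits lay within 200 bp, against 77.4% of all shared regions. Most members were thus 1 peak in each library, with all 6 summits within 200 bp. The span of the 6 summits had a median of 106 bp over the members and 94 bp over all shared regions. It was wider where the gap was wider, with medians of 114 bp at 10 points or more and 132.5 bp at 20 or more. Over the 10 widest gaps it was 168.5 bp.

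**Figure D3:**
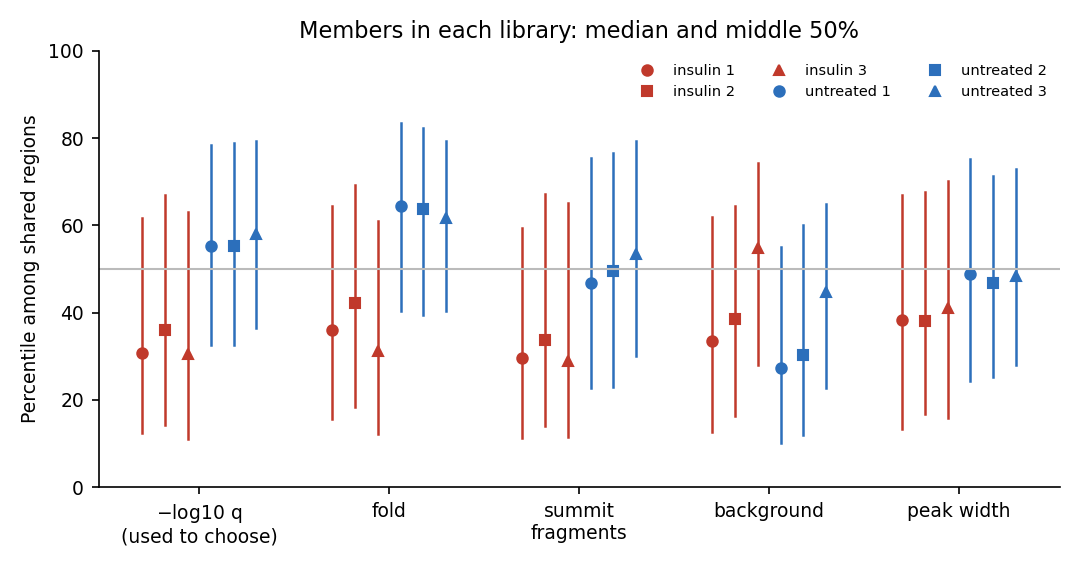
The y axis is the percentile among shared regions and the x axis names the measure, with a point for the median of the 685 members in each library and a line over the middle 50%. The grey line marks 50, the median of all shared regions. Insulin points (red) lie below untreated points (blue) for fold, summit fragments and peak width, and for background they lie above them within each replicate number.

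Members were found at every strength. They made up 5.44% of the shared regions with a mean percentile up to 10, between 3.66% and 5.09% in each band of 10 points from there to 90, and 3.24% above 90. The mirror regions made up 2.86% of the weakest band and 5.38% of the strongest. The member with the highest untreated mean was chr8:95907247-95909299. It was at positions 16, 12 and 13 in the insulin lists and at 8, 10 and 6 in the untreated ones. Its summit held 698, 1028 and 265 fragments after insulin and 951, 631 and 280 without it. The ratio of scaled heights was 1.01, although its percentile by fragments was also lower in every insulin library.

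The other 9 of the 10 strongest members had ratios between 0.867 and 1.01, and all 10 had gaps of 0.567 points or less. At chr3:185825055-185828458, a region of 13 peaks, positions were 35, 20 and 39 after insulin and 9, 11 and 9 without it, with a fragment ratio of 0.882. At chr17:80655959-80657334 they were 86, 56 and 44 against 41, 34 and 33 with a ratio of 1.00. At chr14:74549960-74552014 the ratio was 1.00, at chr10:99399906-99401010 it was 0.956, and at chr6:64345213-64346986 it was 0.943. At chr14:31436373-31437150 it was 0.911, at chr20:2081987-2084700 it was 1.01 and at chr16:15145601-15146681 it was 0.974. The lowest of the 10 ratios, 0.867, was at chr5:72839823-72841828, at positions 516, 248 and 312 after insulin and 117, 126 and 159 without it. All 10 stayed among the first 516 peaks of every list in both treatments.

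**Figure D4:**
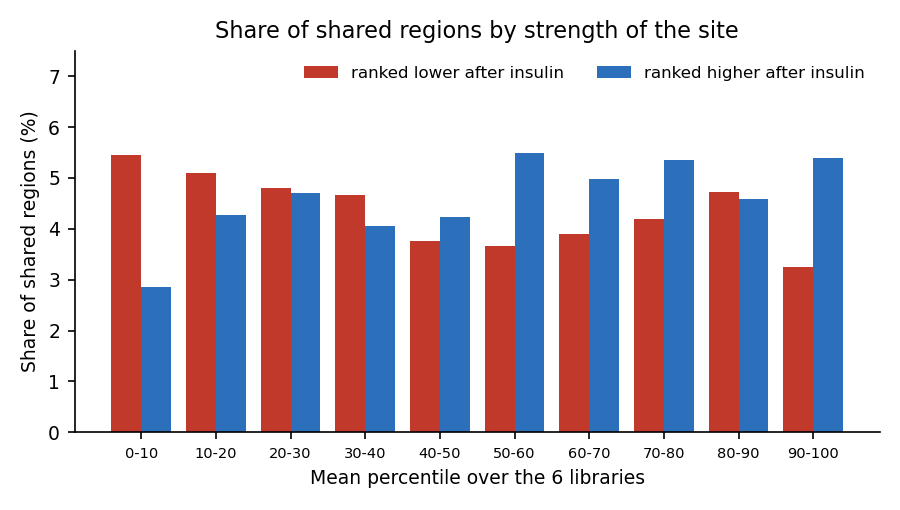
Bars give the share of shared regions (y axis, percent) that were ranked lower (red, the members) or higher (blue) after insulin in every library, in bands of the mean percentile over the 6 libraries (x axis). The red bars lie between 3.24% and 5.44%, and the red bar is above the blue one in each of the 4 weakest bands and in the band from 80 to 90.

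At the edge of the rule, the 3 members with the smallest gap were chr12:56435001-56436343, chr3:138633883-138634970 and again chr8:95907247-95909299, with gaps of 0.0031, 0.0094 and 0.0126 points. At the first of these the percentiles were 79.9, 81.4 and 58.4 after insulin and 86.5, 81.4 and 81.7 without it. The 3 regions just outside were chr16:81546981-81547819, chr6:37137002-37140831 and chr13:24791523-24792358, each with a gap of 0 because the highest insulin and the lowest untreated percentile were equal. At chr16:81546981-81547819 they were 55.3, 54.3 and 56.9 after insulin and 68.2, 56.9 and 74.8 without it. At chr13:24791523-24792358 they were 74.98, 79.4 and 77.4 against 91.0, 79.4 and 95.7.

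Members lay on chromosomes 1 to 22 and X, with 1 member on a contig assigned to chromosome 7 without a position. Their share of a chromosome's shared regions ran from 2.78% on chromosome X (5 of 180) to 6.14% on chromosome 21 (7 of 114). It was 5.83% on chromosome 4 (34 of 583), 5.54% on chromosome 5 (39 of 704) and 5.19% on chromosome 16 (43 of 828), and 3.11% on chromosome 13 (10 of 322). Chromosomes 2, 6, 14, 16, 17 and 20 were looked at apart because they held 67.9% of the 6319 regions called in replicate 3 libraries and in no other. They held 34.5% of the members and 34.1% of all shared regions. The median distance to the nearest other shared region was 19372 bp for members and 20207 bp for all. A shared region lay within 10 kb of 254 members, and for 24 of them (9.45%) this neighbour was a member too. The 24 include 11 mutual pairs, each counted from both ends. Over all shared regions with such a neighbour, it was a member for 4.56%. Neighbours of members within 10 kb had a median difference of means, insulin minus untreated, of -0.945 points, against -16.7 points for the members themselves.

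Among windows of 1 Mb that held a shared region, 1664 held no member, 434 held 1, 87 held 2, 23 held 3 and 2 held 4. One of the windows with 4 members was chr20:40000001-41000000, where 4 of 6 shared regions were members. They were chr20:40125657-40126518, chr20:40161898-40162707, chr20:40167447-40168356 and chr20:40222958-40223787, with gaps of 0.99, 1.70, 3.83 and 8.36 points. The first 3 lie within 43 kb. Their scaled fragment ratios were 0.879, 0.785, 0.810 and 0.785. The other 2 regions of the window, chr20:40245519-40248570 and chr20:40321442-40323380, had ratios of 1.09 and 1.03. In the other window with 4 members, chr6:26000001-27000000, 4 of 37 shared regions were members, and 3 of these had gaps of 0.73, 0.21 and 2.07 points beside the 28.6 of the site described above. Of the 23 windows with 3 members, the one with the fewest shared regions was chr4:40000001-41000000, where 3 of 5 were members, with gaps of 9.07, 1.78 and 6.42 points. No gene is named for any site because no annotation of build hg19 was used here, and no sequence is shown for the same reason.

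The order of strength matters to the count. With percentiles taken among all peaks of a list and not among shared regions alone, 135 regions were lower and 1374 higher after insulin, against 685 and 740. Of the members, 108 (15.8%) were among the 135. The insulin lists held 48208, 45057 and 27503 peaks and the untreated lists 44687, 31668 and 26082. A longer list places its shared regions higher by this measure. The 6 other arrangements with 1 library of each number gave 100 to 1052 by it, so the 135 lie inside that range. Without replicate 3 in both treatments, 4033 of 25214 regions shared by the remaining 4 libraries were lower after insulin and 4439 higher. The 4 other arrangements of those libraries gave 3543 to 4705, and the 2 of them with 1 library of each number gave 3543 to 3866. Of the members, 633 (92.4%) were among the 4033. This overlap is nearly fixed by construction, since a region that meets the rule in 6 libraries also meets it in 4 of them. Only the new merging and ranking can change that. The lists carry no read totals, and depth is known only through the summit heights. The labels do not state whether replicates were separate cultures, and the spread between them may be technical.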

How the data were processed

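FoxK1 immunoprecipitates of 6 samples were used. The 6 input samples were not analysed here. Per the submitters' processing notes, fastp, Bowtie2, SAMtools and MACS2 were used on build hg19; the sources used here give no versions, thresholds or control. The authors called peaks on each library by itself, as the peak names show. The deposited fold is a linear ratio over the estimated background, the deposited −log10 p and −log10 q are those of the summit, and the deposited score is 10 times the −log10 p. Deposited values were ranked only within a list. Ratios between lists were made from summit fragments after division by the median shared region of the same library.

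Regions were built by merging peaks that shared 1 bp, and a region takes its strongest peak by −log10 q in each library. Ties share a percentile. Summit fragments and background were worked out by reading the deposited fold as a ratio of fragments to background with 1 added to each, and the deposited p as a Poisson upper tail. A whole number met both within 0.0005 (in proportion above a −log10 p of 10) for 100% of peaks in each list. The steps were run on simulated data with known answers, where the planted drop was far larger than the noise. That checks the code, and not whether the rule separates signal from noise in these libraries. Python 3.11.15, numpy 2.4.6, pandas 2.3.3, scipy 1.17.1 and matplotlib 3.10.9 were used.

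The members, lists and alternatives were chosen with earlier results of these data known. Regions were named by rule: the 10 members with the widest gap, the 10 with the highest mean untreated percentile, the 3 on either side of the rule and the 3 windows of 1 Mb with the most members. The share of members at gene starts, motifs and the gene lists were planned and not computed, since no hg19 genome or annotation was used here. Same-numbered libraries were treated as pairs because their percentiles deviated together from the means of their groups, with correlations of 0.123, 0.300 and 0.307 for numbers 1, 2 and 3 over shared regions (more than 0.1 in each), and -0.321 to 0.0933 for the other combinations. Deviations within a group sum to 0, so these correlations are not independent of each other. Plain Spearman correlations of the percentiles were 0.8506, 0.8903 and 0.7829 for the same-numbered pairs 1, 2 and 3. The highest between the treatments was 0.8905, for insulin replicate 2 with untreated replicate 1, so they do not set the pairs apart. The labels name no shared batch or day. Depth per library is unknown.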

Additional observations from a re-analysis of the deposited data

How the results depend on the processing

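The count of members stayed within 1.5 times (492 to 748) in 7 of 13 settings other than leaving out 1 library, and that of the mirror regions (494 to 747) in 8. With 5 libraries the rule asks for less, so nearly all members stay by construction. Leaving out 1 library gave 1212 to 1851 regions lower after insulin and 1298 to 2099 higher, lowest without insulin replicate 1 and highest without untreated replicate 3 in both, and between 659 and 683 of the members were among the lower ones. With gaps of at least 5 points the counts were 215 and 226, and with at least 10 points 97 and 70. Percentiles among all peaks of a list gave 135 and 1374. With the replicate block, which asks only for the same direction in each same-numbered pair, they were 2185 and 2317, and all 685 members were included by construction. Without replicate 3 in both treatments they were 4033 and 4439 (4 libraries). Without chromosomes 2, 6, 14, 16, 17 and 20 they were 452 and 494 (less genome). The settings without replicate 3, without chromosomes, with a gap of 10 points and with fragments were chosen after seeing the data. The share at gene starts, and its alternatives, were not run. Depth is unknown here. The median shared summit had 29 fragments in each replicate 3 library and 51 to 87 in the others, and what part depth has in this was not tested.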
